A study of Mus musculus with 6 samples.

Results

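The microRNA machinery described here is a set of 10 genes, chosen by gene symbol from the 22475 genes of the deposited table: Drosha, Dgcr8, Xpo5, Dicer1, Tarbp2, Ago1, Ago2, Ago3, Tnrc6a and Tnrc6b. Each symbol matched 1 row, and all 10 genes passed the filter on low counts. RNA had been sequenced from Lin-, cKit+, Sca1+ bone marrow cells of mice, the gate in which blood stem cells and early progenitors are found. In the KO group the mice carried a homozygous deletion of miR-155 and had FLT3-ITD on both alleles, a duplication inside the gene of the receptor kinase FLT3 that leaves it signalling constantly. In the control group the mice had the same FLT3-ITD alleles and wild type miR-155. There were 3 libraries per group, each made from the combined RNA of 3 mice, so every p-value below measures the spread between pools. The labels give no strain, age or sex and do not say how the miR-155 allele was made, and no group had a normal Flt3 gene.

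MicroRNAs are cut out of long primary transcripts in the nucleus by the Microprocessor, which consists of the nuclease Drosha and its RNA-binding partner Dgcr8. The hairpin is exported by exportin 5 (Xpo5) and cut by Dicer1 with its double-stranded RNA-binding partner Tarbp2, and 1 strand is loaded into an Argonaute protein. Argonautes bound to a target mRNA recruit scaffold proteins of the GW182 family (Tnrc6a, Tnrc6b, Tnrc6c), which bring in the deadenylases and decapping factors that silence the message. Blood formation depends on this pathway, and miR-155 is 1 of its best studied products in leukaemia and immune cells. The deposited data allowed a test of whether the mRNAs of the machinery itself differed when that 1 product was missing.

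The deleted microRNA is shown first because its seed (bases 2 to 8, in capitals) defines the target sites looked for in the machinery. Both arms lie on chromosome 16, plus strand, GRCm38, at 84714143 to 84714165 and 84714182 to 84714202 (sequences from RefSeq, GRCm38.p6).
mmu-miR-155-5p: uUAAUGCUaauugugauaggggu
mmu-miR-155-3p: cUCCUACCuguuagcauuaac

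Matches to the miR-155-5p seed were searched for on the transcribed strand of the longest annotated 3' UTR of each gene (GENCODE M21, GRCm38). The 8mer was AGCATTAA. The 7mer-m8 was AGCATTA without the final A, and the 7mer-A1 was GCATTAA without the first A. Of the 10 genes, 3 held at least 1 match (Ago2, Ago3 and Tnrc6b), of which 2 held an 8mer (Ago2 and Ago3). Among 11723 tested genes with an annotated 3' UTR, 13.9% held any match and 3.37% held an 8mer. The machinery has long 3' UTRs, with a median of 3098 bases against 1185 bases over those 11723 genes. Among the 1736 genes with at least 3098 bases 37.3% held a match. The share with an 8mer was not computed for those genes, so the 8mer count has no comparison at similar length. The 3 genes with a match had the longest 3' UTRs of the 10, with 11064 bases in Ago2, 12742 in Ago3 and 11609 in Tnrc6b. The other 7 genes, with 169 bases in Drosha to 4491 in Ago1, had no match in this window. Shorter matches and matches to the miR-155-3p seed were not searched for, so the other 7 genes are not shown to lack every kind of site. The matches are printed with up to 11 bases on either side, the matched bases in capitals. They name the genes of the set that hold a match of the kinds searched for.
Ago2 8mer, chr15:73099268-73099275, minus strand: gggtacaattcAGCATTAAattaaaatttg
Ago3 7mer-m8, chr4:126339181-126339187, minus strand: accttgtctgcAGCATTAtgtaagaacat
Ago3 7mer-A1, chr4:126338798-126338804, minus strand: ttacacaatggGCATTAAagacagccttt
Ago3 8mer, chr4:126338697-126338704, minus strand: gggagcaaacaAGCATTAAtaaactggatt
Tnrc6b 7mer-m8, chr15:80930844-80930850, plus strand: ctctctcgctgAGCATTAcctgtgccagg
Tnrc6b 7mer-m8, chr15:80933145-80933151, plus strand: ttttaaatatgAGCATTActaaaggaaaa

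Library totals lay between 6843129 and 7601317 counts in the KO group and between 8136914 and 9443615 in the control group. The 10 genes had 97 to 1696 counts per library. The gate and genotype genes Kit, Ly6a, Flt3 and Cd34 were well detected in every library, with 298.7 ± 53.2 CPM of Kit in the KO and 324 ± 74.8 in the control (SD, n = 3 each; CPM is a count scaled to library size with TMM, a normalization between libraries). Among genes of the lineages that the gate removes, Cd3e and Ly6g had at most 1.38 CPM in any library, whereas Itgam had 32.95 to 48.4 CPM in the KO and 40.6 to 42.9 in the control. The T cell genes Cd4 and Cd8a were detected in every library, Cd4 with 4.61 to 14.7 CPM in the KO and 6.72 to 18.7 in the control and Cd8a with 4.82 to 19.6 CPM in the KO and 5.01 to 10.2 in the control, and both were highest in replicate 1 of each group. The B cell gene Ms4a1 had 2.43 to 5.06 CPM in the KO and 4.25 to 7.33 in the control, and the natural killer cell gene Klrb1c had 2.18 to 2.76 CPM in the KO and 2.077 to 3.259 in the control. The host transcript of the deleted microRNA, Gm26667, had 0.613, 1.79 and 0.551 CPM in the KO libraries and 3.59, 5.51 and 4.40 in the control libraries. Its log2 fold change was -2.14 ± 0.46 (SE; edgeR adjusted p = 0.274, 0.0377 with replicate number as a block, and 0.0167 in DESeq2).

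The mRNAs of the microRNA machinery were at similar levels with and without miR-155. In edgeR's quasi-likelihood test over 13217 genes, 0 of the 10 rose and 0 fell at an adjusted p under 0.05, where 0.159% of all tested genes were called (0.0151% higher and 0.144% lower in the KO). None of the 10 had an unadjusted p under 0.05 either, against 3.9% of all tested genes. DESeq2, limma-voom and edgeR with replicate number as a block also called 0 of the 10, where 0.923%, 0.129% and 1.36% of all genes were called. Higher in the KO were 0.0564% in DESeq2, 0.0151% in limma-voom and 0.318% with the block, and lower were 0.867%, 0.113% and 1.04% in the same order. In those 3 fits too, 0 of the 10 had an unadjusted p under 0.05, where 2.03% of genes in DESeq2, 3.77% in limma-voom and 9.37% with the block did, so a count of 0 of 10 lies near the share over all genes. DESeq2 was run without the low-count filter of the other fits. Its 2.03% is therefore over 22470 genes, those with few counts included, and its 0.923% is over the 14191 genes given an adjusted p. In the authors' deposited table, which calls 0.639% of its genes with an adjusted p, each of the 10 had an adjusted p of 0.9999. The log2 fold changes ran between -0.14 for Ago1 and 0.17 for Drosha, 3 above 0 and 7 below. Their median was -0.03, against 0.00 over all tested genes, and the median of their absolute values was 0.04, against 0.08 over the 7792 tested genes in the same range of mean expression. The KO and control libraries overlapped in CPM for all 10 genes, where 8.22% of all tested genes had groups that did not overlap (3.43% higher and 4.79% lower in the KO). In bulk RNA such as this, fewer cells of a type and less RNA per cell cannot be told apart.

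The intervals around these fold changes set what size of change the 6 libraries leave room for. The lowest bound of any 95% interval was 0.707-fold (Ago1) and the highest was 1.42-fold (Drosha). Dicer1 had the narrowest interval, 0.899-fold to 1.12-fold, and Tnrc6a reached from 0.846-fold to 1.07-fold. Tarbp2, with the fewest counts, reached from 0.782-fold to 1.27-fold.

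**Figure D1:**
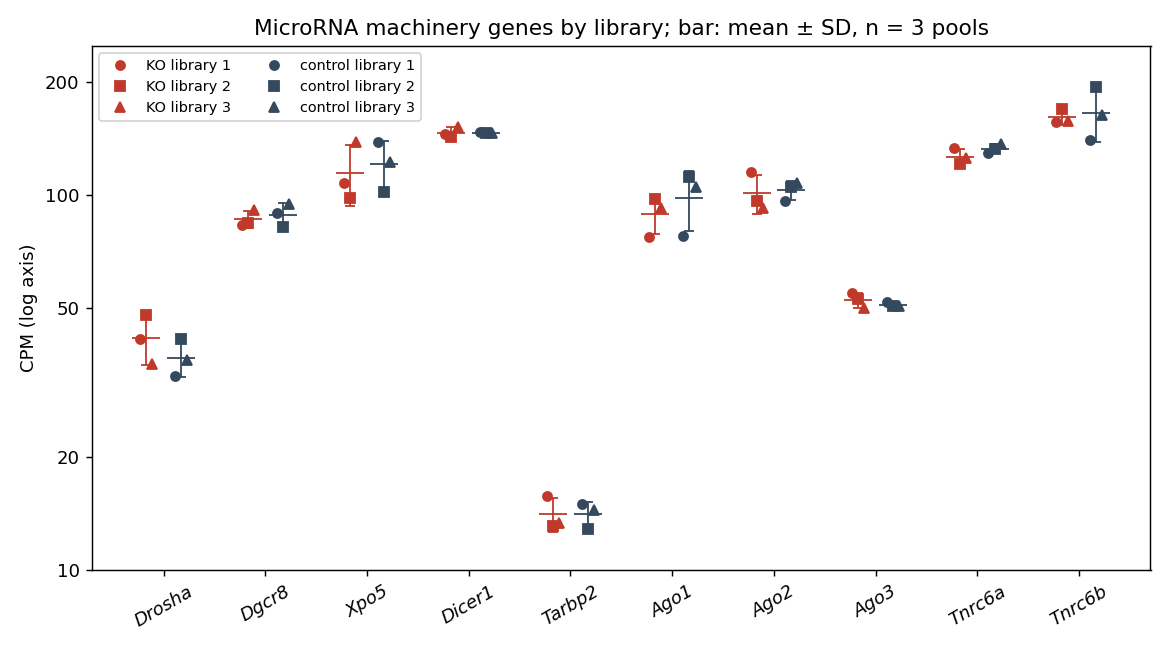
CPM (log axis) of the 10 machinery genes in each library, KO at the left and control at the right of each gene; symbols mark the replicate number and bars the mean ± SD of 3 pools. The groups overlap for every gene, and Ago1 is lowest in the libraries of number 1 (77.4 CPM in the KO, 77.8 CPM in the control).

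**Figure D2:**
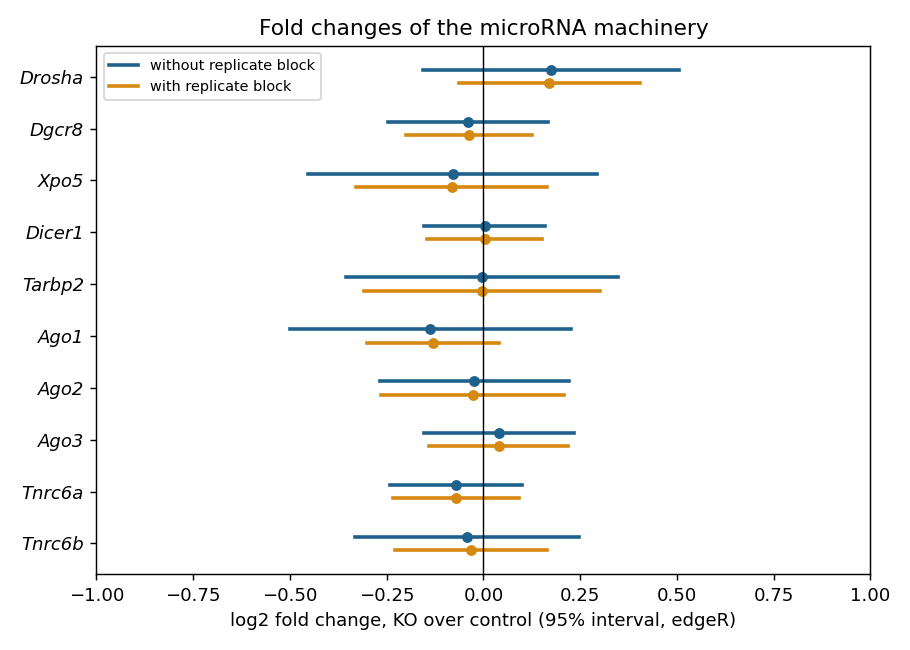
Log2 fold change of each machinery gene, KO over control, with its 95% interval from edgeR, without and with replicate number as a block. Every interval includes 0, and the outermost bounds without the block are -0.50 (Ago1) and 0.51 (Drosha).

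The nuclease of the Microprocessor had the largest positive fold change of the set, which did not pass the test. Drosha (chromosome 15, 12824815 to 12935291, plus strand) had 41.2, 47.9 and 35.4 CPM in the KO libraries and 32.9, 41.2 and 36.3 CPM in the control libraries. KO replicate 2 was the highest of the 6 and control replicate 1 the lowest, and KO replicate 3 lay below control replicates 2 and 3. The log2 fold change was 0.17 ± 0.14 (SE; edgeR adjusted p = 0.9995), and it ranged from 0.05 without KO replicate 2 to 0.28 without KO replicate 3. Dgcr8 (chromosome 16, 18253948 to 18289246, minus strand), the RNA-binding subunit of the complex, had 83.2, 84.4 and 91.4 CPM in the KO and 89.3, 82.0 and 94.9 CPM in the control. Its libraries differed little, and the log2 fold change was -0.04 ± 0.09 (SE; edgeR adjusted p = 0.9995). Exons of the oppositely transcribed gene Trmt2a cover 10.7% of the exonic bases of Dgcr8, and since the counter's use of strand was not given, reads there could come from either gene. Exons of Gm49776, a protein-coding gene on the same strand, cover 4.25%, and strand could not separate reads there.

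Drosha and Dgcr8 act as a complex, so their ratio within a library was compared as well. The log2 ratio of Drosha to Dgcr8 FPKM (the authors' counts per length of gene and depth of library) was -0.72, -0.52 and -1.07 in the KO libraries and -1.14, -0.70 and -1.09 in the control libraries. It was higher in the KO in 3 of 3 pairs of equal number, by 0.21 on average, but the groups overlapped (two-sided exact permutation p = 0.4, 0.667 adjusted over 4 ratios; 3 against 3 cannot go below 0.1). With the pairs kept, a two-sided exact sign-flip test gave p = 0.25, the smallest value that 3 pairs allow. The log2 ratio of Drosha to Dicer1 FPKM, the pathway's RNase III enzymes, averaged -1.10 ± 0.26 in the KO and -1.27 ± 0.17 in the control (SD, n = 3 each; exact permutation p = 0.4, adjusted 0.667).

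Dgcr8 mRNA itself carries hairpins that Drosha is known to cut in mammalian cells, which keeps the level of Dgcr8 in check. The deposited table lists the hairpin Mir1306, which lies in an exon of Dgcr8, as its own gene, and its mature arms on chromosome 16, minus strand, are shown with the seed in capitals (RefSeq, GRCm38.p6; 18284288 to 18284310 and 18284248 to 18284268).
mmu-miR-1306-5p: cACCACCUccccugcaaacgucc
mmu-miR-1306-3p: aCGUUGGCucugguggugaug

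Reads assigned to the Mir1306 hairpin numbered 13, 20 and 16 in the KO libraries and 20, 16 and 23 in the control libraries. These were 2.39%, 3.04% and 2.41% of the Dgcr8 counts in the KO and 2.43%, 2.24% and 2.96% in the control. The log2 fold change was -0.01 ± 0.29 (SE; edgeR adjusted p = 0.9995), with a 95% interval of -0.69 to 0.68. Another microRNA gene annotated in exons of Dgcr8, Gm24572, had 3, 9 and 4 reads in the KO libraries and 11, 6 and 5 in the control libraries. It did not pass the filter on low counts and was not tested. Reads of the intact mRNA and of a released hairpin cannot be told apart in these counts.

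Export and dicing genes were also level. Xpo5 (chromosome 17, 46202782 to 46243598, plus strand), the nuclear exporter of hairpins, had 107.7, 98.1 and 138.5 CPM in the KO and 138.8, 102.2 and 122.7 CPM in the control. The groups spanned nearly the same range, and Xpo5 varied more within groups than it differed between them (log2 range 0.50 within the KO and 0.44 within the control, against a log2 fold change of -0.08 ± 0.16, SE; edgeR adjusted p = 0.9995). Leaving out 1 library moved that fold change between -0.23 (without KO replicate 3) and 0.03 (without control replicate 1).

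Dicer1 (chromosome 12, 104687742 to 104751952, minus strand), which cuts the exported hairpin to its mature length, was the steadiest gene of the set. It had 145.4, 143.0 and 152.2 CPM in the KO and 147.0, 146.3 and 146.1 CPM in the control. The control libraries lay within 0.01 of each other on the log2 scale, and the KO libraries lay on both sides of them. The log2 fold change was 0.00 ± 0.07 (SE; edgeR adjusted p = 0.9995). Tarbp2 (chromosome 15, 102518192 to 102523676, plus strand), the Dicer partner, had 15.8, 13.1 and 13.4 CPM in the KO and 14.99, 12.86 and 14.42 CPM in the control, the lowest counts of the set. In both groups the library of number 1 was highest and that of number 2 lowest, and the log2 fold change was 0.00 ± 0.15 (SE; edgeR adjusted p = 0.9995).

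The Argonautes bind the mature microRNA, and Ago2 is the member of the family best known for cutting fully matched targets. Ago1 (chromosome 4, 126435012 to 126468583, minus strand) had 77.4, 97.9 and 92.5 CPM in the KO and 77.8, 111.5 and 105.3 CPM in the control. It was lower in the KO in 3 of 3 pairs of equal number and was the single gene of the 10 with 1 direction in all pairs, where 31.6% of all tested genes had 1 direction. The pair of number 1 differed by only -0.01 on the log2 scale and the other pairs by -0.19 each. The log2 fold change was -0.14 ± 0.15 (SE; edgeR adjusted p = 0.9995), and the fit with replicate number as a block had a smaller error and did not reach the threshold (-0.13 ± 0.07, SE; edgeR adjusted p = 0.642). Leaving out 1 library moved the unblocked value between -0.28 (without control replicate 1) and -0.03 (without control replicate 2).

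Ago2 (chromosome 15, 73095844 to 73184935, minus strand), which holds an 8mer match to miR-155-5p, had 114.9, 96.3 and 92.3 CPM in the KO and 96.3, 105.0 and 107.4 CPM in the control. KO replicate 1 was the highest of all 6 libraries, KO replicate 2 (96.34) lay just above the lowest control (96.26) and KO replicate 3 below it. The log2 fold change was -0.02 ± 0.10 (SE; edgeR adjusted p = 0.9995), with a direction that depended on which library was left out (-0.12 without KO replicate 1, 0.04 without KO replicate 3). Ago3 (chromosome 4, 126331704 to 126429556, minus strand), with 3 matches, had 54.7, 52.9 and 49.9 CPM in the KO and 51.8, 50.6 and 50.7 CPM in the control. KO replicate 3 was the lowest library and the other KO libraries the highest, and the log2 fold change was 0.04 ± 0.08 (SE; 95% interval -0.15 to 0.23; edgeR adjusted p = 0.9995). Ago4, the fourth Argonaute and no member of the set, had a log2 fold change of -0.07 ± 0.20 (SE; edgeR adjusted p = 0.9995). Ago3, Ago1 and Ago4 are neighbours within 201.8 kb of chromosome 4.

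Within the Argonaute mRNA pool, Ago1 and Ago2 made up most of the transcripts per length in both groups. Ago1 took 41.7% ± 5.51 of the summed FPKM in the KO and 43.4% ± 4.96 in the control, and Ago2 took 34.9% ± 3.42 and 33.9% ± 1.03 in the same order (SD, n = 3 each). The Ago2 share was 38.9%, 32.9% and 33.0% in the KO libraries and 34.6%, 32.7% and 34.4% in the control libraries. Only KO replicate 1 stood above the control range, and the groups did not differ beyond their spread (difference 1.02 percentage points; two-sided exact permutation p = 0.8, adjusted 0.8). Without KO replicate 1 the difference was -0.95 percentage points, and without the libraries of number 1 in both groups it was -0.61. Ago3 took 11.99% ± 0.224 in the KO and 11.2% ± 1.01 in the control, and Ago4 took 11.4% ± 1.89 in the KO and 11.6% ± 3.34 in the control. With GENCODE exon lengths in place of those behind the FPKM, Ago1 averaged 45.1% in the KO and 46.86% in the control. Ago2 then averaged 29.55% in the KO and 28.6% in the control.

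**Figure D3:**
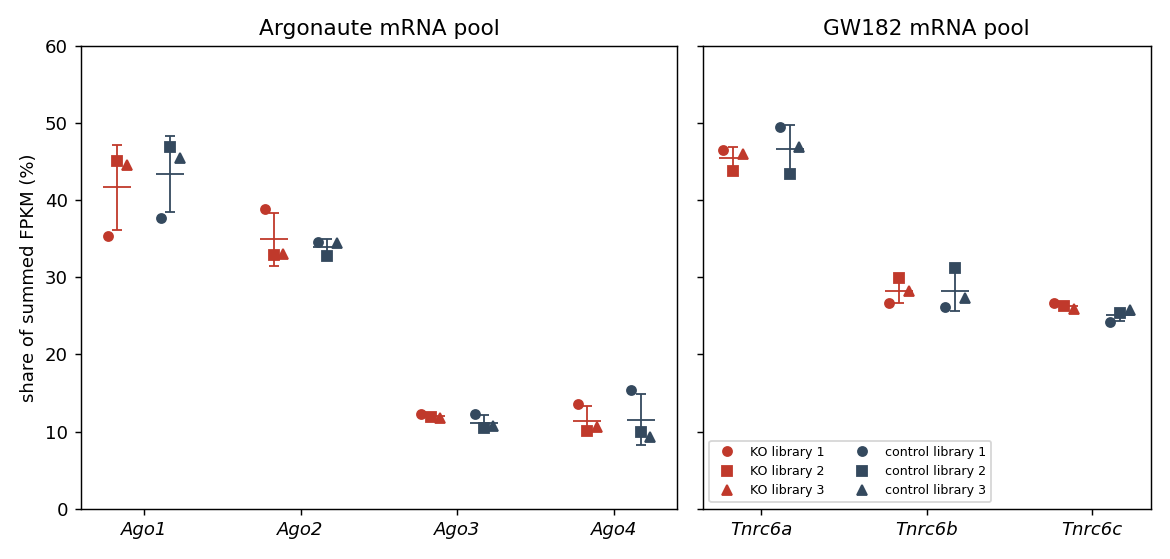
Share of each gene in the summed FPKM of the Argonaute genes (left) and of the GW182 genes (right), in percent, by library, KO to the left of control for each gene; bars show the mean ± SD of 3 pools. Ago1 takes 35.3% to 45.1% in the KO and 37.7% to 46.9% in the control, with the lowest value of each group in the library of number 1.

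The GW182 scaffolds, which link Argonaute to the deadenylases, were likewise level. Tnrc6a (chromosome 7, 123123885 to 123195296, plus strand) had 133.5, 121.3 and 125.4 CPM in the KO and 129.5, 132.8 and 137.0 CPM in the control. KO replicates 2 and 3 were the lowest libraries and KO replicate 1 lay among the controls. The log2 fold change was -0.07 ± 0.07 (SE; 95% interval -0.24 to 0.10; edgeR adjusted p = 0.9995).

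Tnrc6b (chromosome 15, 80711313 to 80941085, plus strand), with 2 matches to miR-155-5p, had 156.8, 169.5 and 157.3 CPM in the KO and 140.2, 194.8 and 163.1 CPM in the control. All KO libraries lay inside the control range, and the log2 fold change was -0.04 ± 0.12 (SE; edgeR adjusted p = 0.9995). That value turned to 0.09 without control replicate 2. Tnrc6a made up 45.4% ± 1.45 of the summed GW182 FPKM in the KO and 46.6% ± 3.07 in the control (SD, n = 3 each; two-sided exact permutation p = 0.5, adjusted 0.667). The difference of -1.20 percentage points became 0.25 without control replicate 1. The share also rests on the gene lengths behind the FPKM: with GENCODE exon lengths it averaged 39.2% in the KO and 40.45% in the control. Tnrc6c, which completes the family, had a log2 fold change of 0.03 ± 0.10 (SE; edgeR adjusted p = 0.9995). Its share was 26.72%, 26.29% and 25.85% in the KO libraries and 24.26%, 25.42% and 25.72% in the control libraries. All KO libraries lay above all control libraries for this share, which was not tested. The Tnrc6b share averaged 28.27% in the KO and 28.23% in the control.

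The 3 genes with a match to the miR-155-5p seed therefore had log2 fold changes of -0.02 (Ago2), 0.04 (Ago3) and -0.04 (Tnrc6b). The 95% intervals ended at 0.22, 0.23 and 0.25 on the upper side, or 1.17-fold, 1.18-fold and 1.19-fold. The genes with no match ran between -0.14 (Ago1) and 0.17 (Drosha).

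Per length, the exporter was the most abundant message of the 10, and Ago3 and the Dicer partner Tarbp2 were the lowest. Over the 6 libraries Xpo5 had 31.7 ± 4.77 FPKM, Tnrc6a 15.3 ± 0.625, Dicer1 14.9 ± 0.528, Dgcr8 12 ± 0.815, Ago1 11.6 ± 1.98, Tnrc6b 9.44 ± 1.21, Ago2 9.29 ± 0.658, Drosha 6.60 ± 0.999, Ago3 3.12 ± 0.0871 and Tarbp2 3.08 ± 0.175 (SD, n = 6). The ranges of neighbours overlapped for Tnrc6a and Dicer1, along the run Dgcr8, Ago1, Tnrc6b and Ago2, and for Ago3 and Tarbp2, so the order within those runs is not resolved. Drosha (5.41 to 8.29 FPKM) lay below its neighbour Ago2 in all libraries but overlapped Tnrc6b (7.88 to 11.4 FPKM). The order also rests on the gene lengths behind the deposited FPKM, which implied 3709 bases for Xpo5 and 9851 for Dicer1, against 6859 and 16750 bases of annotated exons in GENCODE M21. With the GENCODE lengths Xpo5 stayed first and Drosha, Ago3 and Tarbp2 stayed last, while Ago1 moved to the second place and Dicer1 to the fifth.

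Some values followed the replicate number of the library. Ago1 was lowest in the libraries of number 1 in both groups, at 77.4 CPM in the KO and 77.8 in the control, against 92.5 and 97.9 in the other KO libraries and 105.3 and 111.5 in the other control libraries. Macrophage markers summed to 818 CPM in KO replicate 1 and 1049 in control replicate 1, against 274.6 and 379.8 in the other KO libraries and 206 and 239 in the other controls. All 10 macrophage markers were measured and none was at 0 in any library; C1qa had 39.8 CPM in KO replicate 1 and 69.0 in control replicate 1, against 3.46 to 8.27 in the others. Kit and Cd34 were lowest in the same 2 libraries. Plasma cell markers separated the groups instead, with a sum of 694 to 1782 CPM in the KO and 3107 to 4502 in the control, and none of the 8 markers was at 0. Jchain made up most of that sum, with 461 to 1403 CPM in the KO and 2656 to 3900 in the control. Tnfrsf17 was the 1 marker whose groups overlapped, where 4.79% of all tested genes were lower in the KO without overlap. In edgeR 0 of the 8 passed (smallest adjusted p = 0.0678), where 0.144% of all tested genes fell. With replicate number as a block 6 fell, where 1.04% of all tested genes did: Sdc1, Prdm1, Mzb1, Jchain, Irf4 and Derl3 (edgeR adjusted p between 0.00217 and 0.0185). The plasma cell list was chosen with earlier results of these data known. The part of these other cells in the machinery's values was not tested. Without the libraries of number 1 in both groups, a comparison added after the data were seen, 0 of the 10 genes were called (edgeR, 0 of 10 rose and 0 fell; smallest adjusted p = 0.855), where 0.202% of all tested genes were called (0.03% higher and 0.172% lower in the KO), and Ago1 had a log2 fold change of -0.19.

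**Figure D4:**
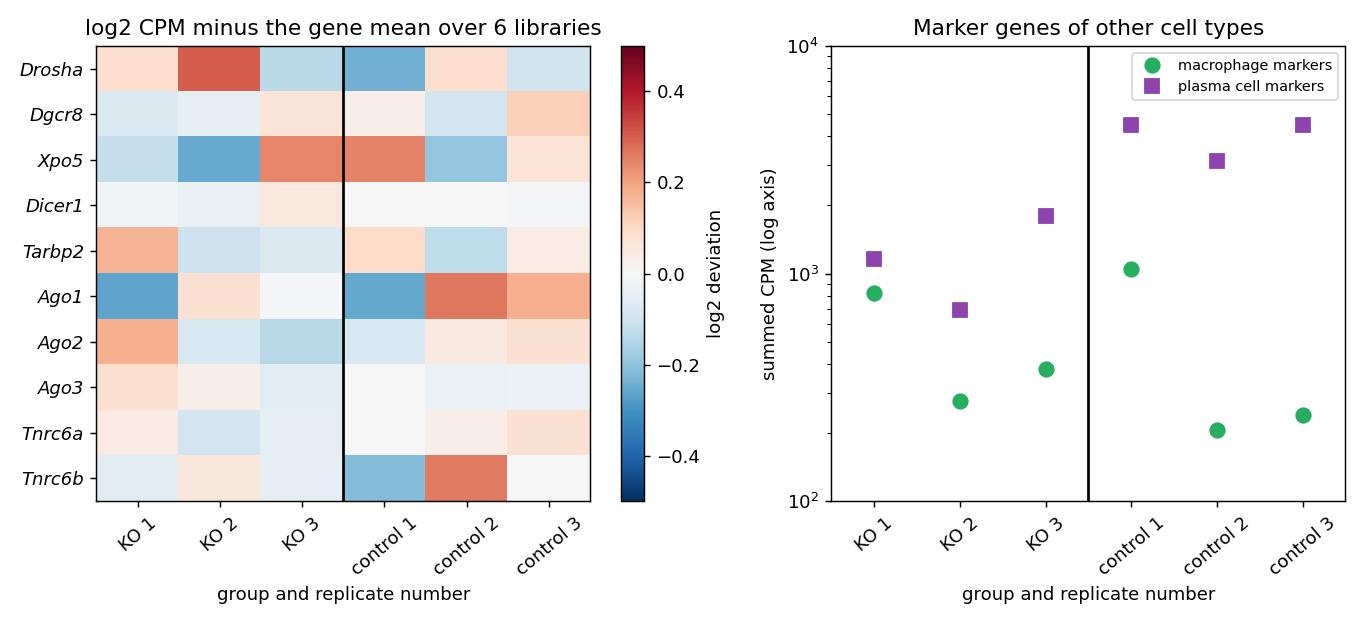
Left, log2 CPM of each machinery gene minus its mean over the 6 libraries (colour scale, log2 units). Right, summed CPM (log axis) of 10 macrophage and 8 plasma cell markers in the same libraries. KO replicate 1 and control replicate 1 have the highest macrophage sums (818 and 1049 CPM) and the lowest Ago1, while the plasma cell sums separate the groups (at most 1782 CPM in the KO, at least 3107 in the control).

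No partner gene of the machinery passed the test. In 4 lists of 65 partner genes, 63 were tested, and 0 rose and 0 fell in edgeR, with or without the block (0.159% and 1.36% of all tested genes were called). At an unadjusted p under 0.05 there were 2 of 63 without the block and 7 with it, where 3.9% and 9.37% of all tested genes passed. KO and control libraries did not overlap for 2 of 63, both higher in the KO, or 3.17% against 8.22% of all tested genes. These were the decapping enzyme Dcp2 (log2 fold change 0.20) and, named after its values were seen, the deadenylase subunit Pan2 (0.07).

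Among 11 nuclear helpers, which include the helicases Ddx5 and Ddx17, the median log2 fold change was 0.00, between -0.10 and 0.14. Mettl3, the methyltransferase that marks primary transcripts, was at -0.10, the splicing regulator Khsrp at -0.08, Srrt at -0.09 and Hnrnpa1 at 0.06. Among 29 GW182, deadenylation, decapping and repression partners the median was 0.04, between -0.05 and 0.23, and 20 were above 0. Dcp2 had 243 ± 19.8 CPM in the KO and 211.9 ± 14.1 in the control (SD, n = 3 each; edgeR adjusted p = 0.9995). The decapping activator Edc3 (0.22), the Argonaute-binding protein Limd1 (0.23) and the exonuclease Xrn1 (0.18) did not pass either. Among 13 tested genes of tailing, trimming, editing and turnover the median was -0.01. The editing enzyme Adar was at 0.25, the nuclease Zc3h12a at 0.23, the deadenylase Parn at -0.21 and Tsnax at -0.16. Single libraries carried part of these values: without KO replicate 1 Limd1 was at 0.06 and Adar at 0.08, and without control replicate 1 Zc3h12a was at 0.07.

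The 10 export, dicing and loading partners had a median of 0.03 and held the largest values of the 4 partner lists, in Hsp90aa1 and Hspa8, general chaperones that also help to load Argonaute. Hsp90aa1 had 621, 644 and 305 CPM in the KO and 327, 304 and 323 in the control, and Hspa8 had 1387, 1266 and 734 CPM in the KO and 838, 736 and 736 in the control. KO replicates 1 and 2 were high for both genes, and KO replicate 3 lay within or below the control range. The log2 fold changes were 0.72 ± 0.26 for Hsp90aa1 and 0.55 ± 0.22 for Hspa8 (SE; edgeR adjusted p = 0.9995 each). Without KO replicate 3, the KO library with the lowest value, Hsp90aa1 passed, at 1.00 (edgeR adjusted p = 0.0167). In that setting 27 of 13539 tested genes were called, 3 higher and 24 lower in the KO. An unadjusted edgeR p under 0.05 was reached by 900 genes there, against 515 with all 6 libraries. Other heat shock genes, named after their values were seen, had larger values that did not pass either, with log2 fold changes of 2.38 for Hspa1a (edgeR adjusted p = 0.648) and 1.48 for Dnajb1 (edgeR adjusted p = 0.969). The cochaperone Fkbp4 was at -0.15 and Ankrd52, a subunit of the phosphatase that acts on Argonaute, at 0.20.

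**Figure D5:**
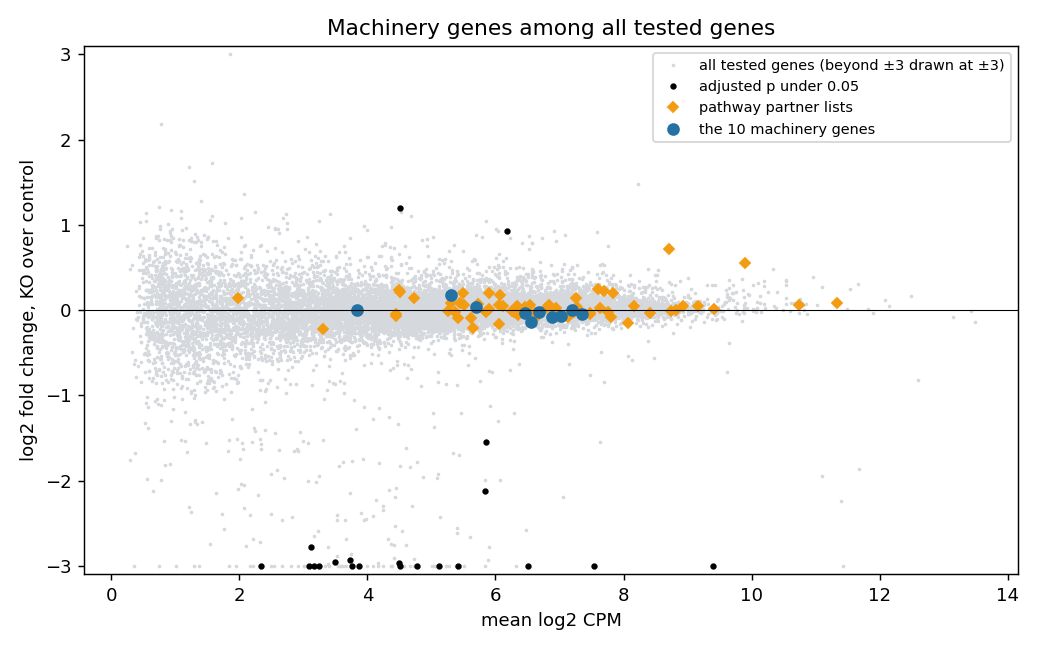
Log2 fold change, KO over control, against mean log2 CPM for all tested genes, with values beyond 3 in either direction drawn at 3; the 21 genes at an adjusted p under 0.05 are black, the 63 tested partners orange and the 10 machinery genes blue. The machinery lies between -0.14 and 0.17, and the partners farthest from 0 are Hsp90aa1 (0.72) and Hspa8 (0.55).

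Long host transcripts give a view of what enters the pathway. Of 11 listed hosts, 7 were in the table and 5 were tested. The median log2 fold change of those 5 was 0.25, and 4 were above 0. Over the 7 hosts CPM summed to 90.1 to 94.55 in the KO libraries and 78.1 to 81.4 in the control libraries. These sums did not overlap, and they were not tested. In edgeR 0 rose and 0 fell, where 0.0151% and 0.144% of all tested genes did. With replicate number as a block 1 fell, Gm26667, the host of the deleted microRNA itself, where 1.04% of all tested genes fell. Mir17hg, the host of the miR-17-92 cluster, had 51.2, 57.9 and 55.7 CPM in the KO and 49.8, 43.3 and 48.1 CPM in the control. All KO libraries lay above all control libraries, as for 3.43% of all tested genes. The log2 fold change of 0.22 ± 0.10 did not pass (SE; edgeR adjusted p = 0.9995, and 0.534 with the block). Mir142hg, the host of a microRNA specific to blood cells, was at 0.42 ± 0.27 and Mir22hg at 0.42 ± 0.31 (SE; edgeR adjusted p = 0.9995 each). Mir142hg was at 0.10 without KO replicate 1, and Mir22hg was at 0.26 without control replicate 3.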

How the data were processed

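Counts per gene and library were deposited by the authors as whole numbers without normalization, and the authors' FPKM values stood beside them, as did the authors' log2 fold change and adjusted p-value per gene, per the file headers. Novoalign 2.08.01, DESeq2 1.10.1 and mm10 are named in the submitters' processing notes; which program counted the reads, on which annotation and whether by strand is not given in the sources used here, so reads in overlapping genes are uncertain. Counts were tested with edgeR 4.0.16 (R 4.3.3; TMM, filterByExpr with a minimum count of 10 and total of 15, quasi-likelihood F test, Benjamini-Hochberg adjustment over 13217 genes, threshold 0.05), KO over control. SE came from the F statistic and 95% intervals from its degrees of freedom. FPKM were used for shares and ratios, with exact permutation tests (scipy 1.17.1). DESeq2 1.42.0 and limma-voom 3.58.1 were alternatives. The fits were also run on simulated counts that held no effect of replicate number, so that run cannot vouch for the blocked fit on these data. Of the 22475 genes, 21966 matched GENCODE M21 (GRCm38, the assembly of mm10), which gave coordinates, symbols, exon lengths and 3' UTRs.

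Replicate numbers were treated as pairs in the blocked fit. Deviations from the group means over 12634 genes correlated by 0.608, 0.576 and 0.252 for equal numbers 1, 2 and 3. For unequal numbers they correlated by -0.547 to 0.137, highest for KO replicate 2 with control replicate 3. Deviations within a group sum to 0, so these correlations are not independent of each other. This pairing comes from the data, and the labels do not say what a number shares. The members and lists were chosen with earlier results of these data known. Named genes are all members, Gm26667, Kit, Ly6a, Flt3, Ago4, Tnrc6c, the 4 genes of smallest p in each partner and host list, and any gene of those lists that passed with or without the block. Marker genes of other cell types, genes that overlap Dgcr8, Cd34, Ddx5, Ddx17, Pan2, Hspa1a and Dnajb1 are named outside this rule. A count of 3, which a count of 0 allows, corresponds to 0.318 to 0.438 CPM, for counting error only.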

Additional observations from a re-analysis of the deposited data

How the results depend on the processing

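Of 140 values of the 10 genes under alternative settings, 126 kept their direction, 14 reversed and 0 passed the threshold. The members called stayed 0 in each setting run. The count of 21 genes over all tested became 180 with the replicate block, 131 with DESeq2, 97 without a low-count filter and 0 to 27 with 1 library left out (0 without control replicate 1 or 3, 8 without KO replicate 2, 9 without control replicate 2, with 766, 358, 429 and 431 genes at an unadjusted p under 0.05). Leaving out 1 library gave log2 fold changes of -0.092 to 0.018 for Dgcr8, -0.234 to 0.0309 for Xpo5, -0.0200 to 0.0176 for Dicer1, -0.0878 to 0.0464 for Tarbp2, -0.120 to 0.0400 for Ago2 and -0.147 to 0.0905 for Tnrc6b. It gave -0.153 to 0.0127 for Srrt, -0.225 to 0.117 for Ago4, -0.286 to 0.0334 for Kit, -0.190 to 0.0355 for the Flt3 gene and -0.0559 to 0.0852 for Tnrc6c. Without a low-count filter Dicer1 was at -0.00254. Without replicate 1 of both groups, chosen after seeing the data, Xpo5 was at 0.0746, Tnrc6c at -0.0891 and the Ago2 share difference at -0.609 percentage points. Leaving out 1 library gave -0.949 to 2.04 percentage points for the Ago2 share and -2.80 to 0.2495 for the Tnrc6a share. The causes were not tested. The replicate block changed the call of Gm26667 (edgeR adjusted p 0.0377) and of 6 of 8 plasma cell markers, and of no member or partner. With the block 1.36% of all tested genes were called. Tarbp2 had the fewest counts of the 10, 97 to 138 per library.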

Other observations

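The promoters of the machinery were rich in CpG. RefSeq promoter windows (250 bases before to 50 after the start, GRCm38.p6) matched 9 of the 10 genes with 11 windows. Of the 11, 10 had an observed over expected CpG ratio of at least 0.6, against 35.8% of 32851 windows over all genes. Those windows were not limited to the tested genes, so a difference from other expressed genes was not tested. The ratio ranged from 0.511 in 1 of the windows of Tnrc6b, the GW182 scaffold, to 1.19 in Drosha, with a median of 0.894 against 0.384 over all windows. The biological coefficient of variation fitted by edgeR had a median of 0.118 over the 10 genes, between 0.086 in Dicer1 and 0.151 in Xpo5, against 0.124 over the 7792 tested genes in the same range of mean expression.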
